A study of Caenorhabditis elegans with 6 samples.

Results

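Accessible chromatin peaks deep inside genes of Caenorhabditis elegans are described here. They are the peaks on the 5 autosomes whose summit lay inside the span of a protein-coding gene and more than 200 bp from every protein-coding gene end. Of 4996 peaks in 2 deposited lists, 930 met this rule. The list for neuronal nuclei held 436 of them among 2313 peaks (18.9%), and the list for total nuclei held 494 among 2683 (18.4%). Peaks of both lists that overlapped by at least 1 bp were joined, which gave 512 sites in 451 host genes. The rule used position alone and no fold. Host gene length is tied to it. The share of peaks at RNA genes can depend on it too, since the rule leaves out peaks at protein-coding gene ends. Along the genome, the bases that satisfy the rule make up the inner length, 45.3 Mb or 54.8% of the autosomes. Of the autosomal peaks alone, 23.7% in the neuronal and 22.8% in the total list were inner peaks. Inner peaks were thus sparse, at 9.63 per Mb of inner length in the neuronal and 10.9 in the total list. Peaks from 1000 bp outside to 200 bp inside a gene end numbered 48.0 and 57.8 per Mb, and those farther outside genes 22.5 and 26.0.

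The peaks come from ATAC-seq, in which the transposase Tn5 cuts and tags open DNA. All animals were of the strain OH11061 with the genotype otIs381, a transgene that labels neuronal nuclei with GFP. They were grown at 20 °C on OP50 bacteria as a mixed-stage population, mostly larvae. The neuronal group was 3 samples of nuclei sorted for GFP and for the DNA stain DAPI, and the total group was 3 samples sorted for DAPI alone, each of 50000 nuclei. Both groups carry the transgene, and total nuclei include neuronal ones. The data used here are 1 list per group on build ce11, with no value per sample and no depth per sample. No comparison below therefore has a replicate spread or a test, and intervals cover counting error only.

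Open sites inside genes are of several known kinds. In C. elegans, as in other animals, introns can hold enhancers and the promoters of shorter transcripts of the same gene. Worm introns also hold whole genes for small RNAs, such as transfer RNAs (tRNAs), the spliceosomal small nuclear RNAs (snRNAs) and the small nucleolar RNAs (snoRNAs) that guide chemical changes of ribosomal RNA. RNA polymerase III transcribes tRNA genes from promoter elements that lie within the gene.

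A large share of the inner sites stood at such nested RNA genes. The summit of 179 of the 512 sites (35.0%, 95% exact binomial interval 30.8% to 39.3%) lay within 200 bp of an annotated tRNA, snRNA or snoRNA gene, whereas 0.459% of the inner length lies that close to one. These 3 classes are called short RNA genes below. tRNA genes accounted for 116 sites (22.7%), against 0.184% of the inner length. snoRNA genes accounted for 42 sites (8.20%), against 0.208%, and snRNA genes for 21 sites (4.10%), against 0.0669%. A site at a short RNA gene was counted there alone, also where another non-coding gene was near. A further 53 sites lay at other annotated non-coding genes and at no short RNA gene. Most of them were of the unspecified class ncRNA (45 sites), with 4 at microRNA genes. Counted regardless of other classes, 155 of the 512 sites (30.3%) lay within 200 bp of an ncRNA gene, against 2.29% of the inner length. The remaining 280 sites (54.7%, 50.3% to 59.1%) had no annotated non-coding gene within 200 bp, piRNA genes left aside.

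**Figure D1:**
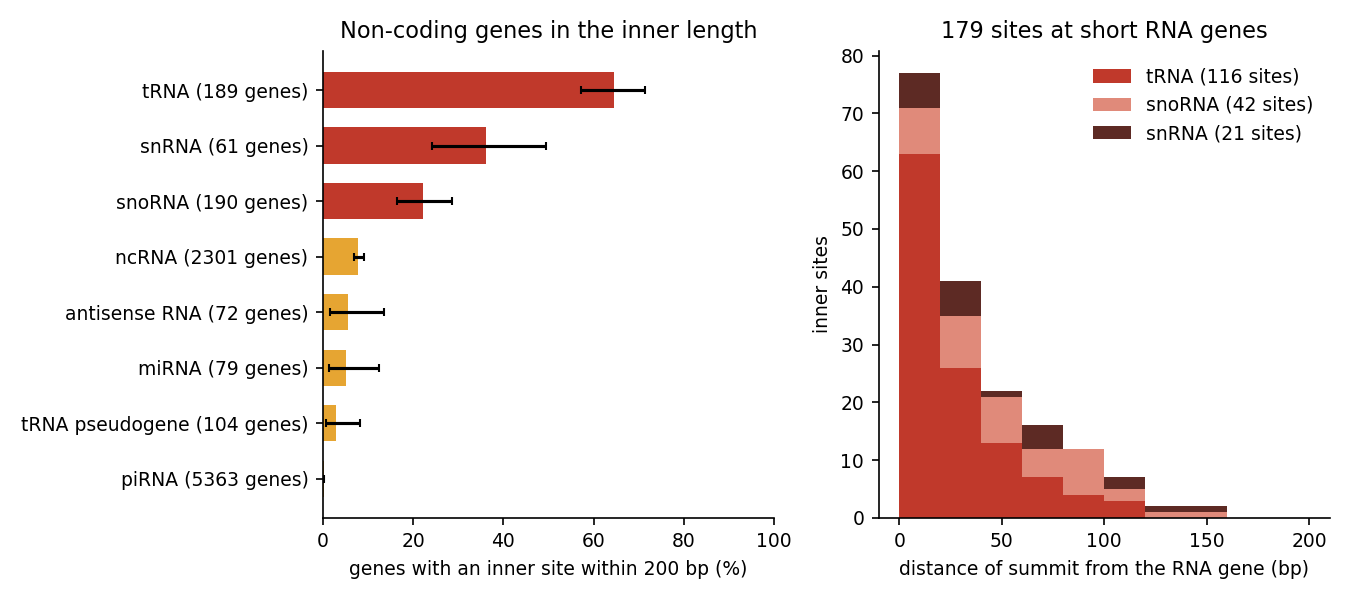
Left, the share of annotated non-coding genes in the inner length that had an inner site within 200 bp, by class, with 95% exact binomial intervals and the number of genes in brackets. Right, inner sites at short RNA genes by the distance from summit to RNA gene in bp, where 0 is inside the gene. tRNA genes have the highest share, 64.6%, against 2.88% for tRNA pseudogenes, and 35 of the 116 summits at tRNA genes lie inside them.

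Most nested tRNA genes had a peak, and nearly all nested tRNA pseudogenes had none. Of 189 tRNA genes in the inner length, 122 (64.6%, 57.3% to 71.4%) had an inner site within 200 bp. Of the tRNA pseudogenes, which are annotated as degenerate copies, 3 had one (2.88%, 0.599% to 8.20%), and each of those 3 sites was also at a snoRNA gene. The share was 22 of 61 for snRNA genes (36.1%, 24.2% to 49.4%), with mir-1831, which lies within sup-39, listed in that class, and 42 of 190 for snoRNA genes (22.1%, 16.4% to 28.7%). For microRNA genes it was 4 of 79 (5.06%, 1.40% to 12.5%), and for the 5363 piRNA genes of the inner length it was 0.112%. Summits were close to the tRNA genes: the median distance was 15 bp, 35 summits lay inside the gene and 97 within 50 bp. For snoRNA genes the median distance was 55 bp, and for snRNA genes 36 bp.

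For tRNA genes the share with a peak was close inside and outside the inner length. With any autosomal peak counted, 128 of 189 tRNA genes in the inner length had one within 200 bp (67.7%, 60.6% to 74.3%), against 97 of 147 elsewhere on the autosomes (66.0%, 57.7% to 73.6%), and the intervals overlap. The shares for snRNA genes were 37.7% and 41.5%. For snoRNA genes they were 22.1% (16.4% to 28.7%) inside and 43.1% (34.2% to 52.3%) elsewhere. Outside the inner length, peaks of nearby protein-coding gene ends are counted too, and their part in these shares was not tested. Among the peaks themselves, 40.4% of the inner peaks in the neuronal list were at a short RNA gene, against 11.4% of its peaks near gene ends and 14.2% of its peaks over 1000 bp outside genes. In the total list the shares were 35.4%, 9.33% and 11.5%. These shares also depend on the other peaks, which are sparse in the inner length. At short RNA genes the neuronal list had 176 inner peaks, 122 near gene ends and 48 farther outside. The total list had 175, 120 and 45. The inner length is 54.8% of the autosomes, the stretches near gene ends 27.0% and those farther outside 18.2%. By length, such peaks were thus sparser inside genes than near gene ends and denser than farther outside, without intervals. tRNA genes occur in many near-identical copies, and the value at any single copy is uncertain, with the treatment of reads that match several copies not given in the sources used here. Exons were not used here, so a nested RNA gene and an exon or intron of its host cannot be told apart as the place of the cuts.

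Most of the highest inner peaks were at short RNA genes. In each list, 8 of the 10 inner peaks of highest fold were at one, as were 36 of the 50 highest in the neuronal and 35 in the total list. The fold is the authors' enrichment of a peak over its local background and is compared only within a list. The inner peak of highest fold in the neuronal list lay over sup-6, an snRNA gene inside F58G1.7, on chromosome II from 12944515 to 12945413. Its fold was 23.6 in the neuronal and 24.2 in the total list. sup-6 and sup-39 are known from mutations that suppress splice site defects. The sup-39 site, inside C15F1.5, had folds of 15.2 and 16.5. Among the next in the neuronal list were sites of snoRNA genes, C08D8.3 inside C08D8.1 on chromosome V (8348647 to 8349487), with folds of 23.4 and 24.2, and Y55F3BR.9 inside Y55F3BR.2, with folds of 22.6 and 24.02. At ckk-1, which encodes a calmodulin-dependent kinase kinase, the peak of folds 19.9 and 20.9 lay 11 bp from the snoRNA gene C05H8.3.

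Named tRNA and other RNA genes followed the same arrangement. These examples were chosen after their values were seen. The tRNA gene sup-5, known from amber suppressor mutations, lies inside fli-1, the worm flightless gene, and the summit there fell inside sup-5. The folds of this site were 16.3 in the neuronal and 17.0 in the total list. The tRNA gene rtw-6 inside daf-42 had folds of 16.9 and 17.9. The highest tRNA site in both lists, inside Y116F11A.6 at Y116F11A.t1, had folds of 19.3 and 20.5. Among the class ncRNA, rpr-1, the RNA subunit of RNase P, inside ints-8, had folds of 18.4 and 18.1. srpr-2.2, inside the kinesin gene klp-6, had folds of 14.97 and 16.7. Of the 4 microRNA sites, that near mir-90 was the highest, with folds of 15.4 and 18.0.

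Sites at short RNA genes differed from the sites with no annotated non-coding gene in fold, in host and in list membership. Their median fold was 12.5 (95% interval 11.6 to 13.2) in the neuronal and 12.8 (12.3 to 13.6) in the total list. Sites with no annotated non-coding gene had medians of 9.30 (8.95 to 9.91) and 9.38 (9.04 to 9.90), and sites at other non-coding genes 9.31 and 9.56. The hosts of short RNA sites were shorter, with a median length of 4848 bp (4281 to 5779) against 8716 bp (7649 to 9908). Both lists held 171 of the 179 short RNA sites (95.5%, 91.4% to 98.1%) but 203 of the 280 sites without an annotated non-coding gene (72.5%, 66.9% to 77.6%).

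**Figure D2:**
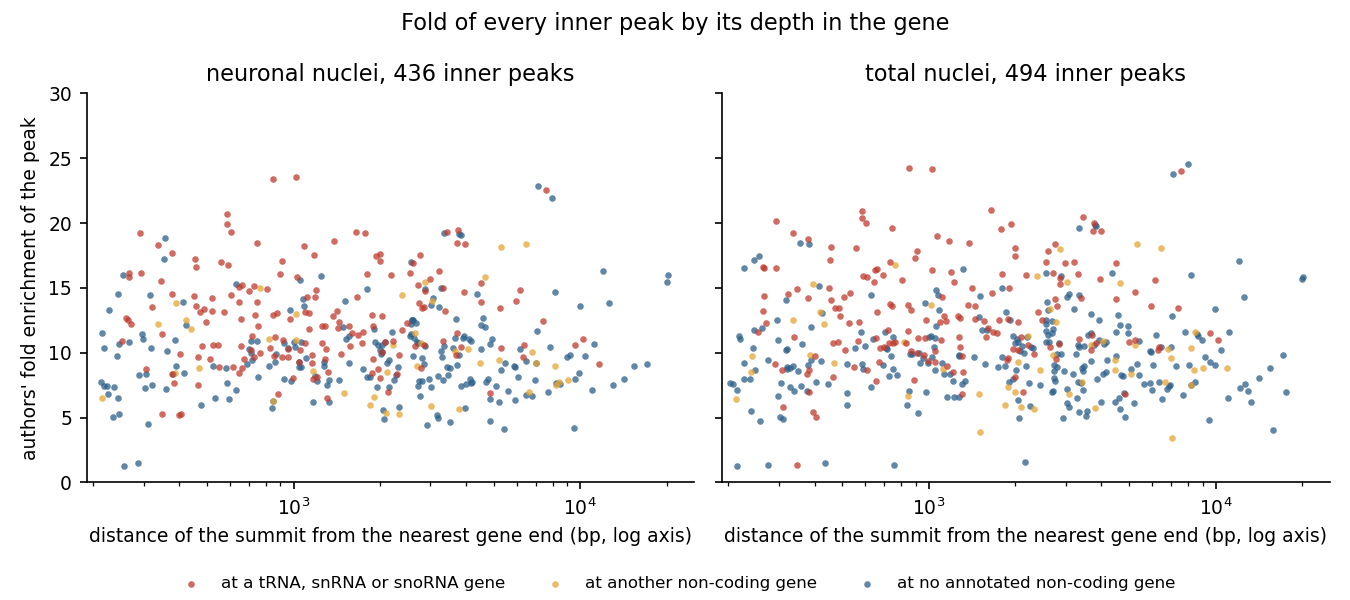
Each point is an inner peak of the neuronal list (left, 436 peaks) or the total list (right, 494 peaks). The x axis is the distance of the summit from the nearest protein-coding gene end in bp on a log axis. The y axis is the authors' fold, and colour gives the kind of non-coding gene within 200 bp of the peak's own summit. Peaks at short RNA genes make up 8 of the 10 highest folds in each list and 1 and 0 of the 10 peaks farthest from gene ends.

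Over all inner peaks the median fold was 10.5 in both lists (10.2 to 10.8 in each), with ranges of 1.30 to 23.6 in the neuronal and 1.26 to 24.5 in the total list. Autosomal peaks near gene ends, whose summit lay from 1000 bp outside to 200 bp inside a gene end, had medians of 9.87 (9.70 to 10.2) and 10.1 (9.90 to 10.3). Those farther outside genes had medians of 11.2 in both lists. Inner peaks were narrower than those near gene ends, with median widths of 760 bp and 742 bp against 898 bp and 942 bp. Those farther outside genes were narrower still, at 699 bp and 685 bp. A fold under 2 was given for 8 inner peaks, 2 in the neuronal list (in F48E8.8 and C37C3.18) and 6 in the total list (in rpn-11, ech-4, cacn-1, rps-29, mlcd-1 and prdh-1).

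Of the inner neuronal peaks 18 (4.13%, 2.46% to 6.45%) overlapped no total peak, against 4.11% of all peaks of that list. Of the inner total peaks 77 (15.6%, 12.5% to 19.1%) overlapped no neuronal peak, against 17.4% of all peaks of that list. Both shares were near the background of their list. The total list is longer, and its part in the gap between the lists was not tested. The total list was also reduced by p-value to as many peaks as the neuronal list. Then 92.4% (89.5% to 94.7%) of inner neuronal and 93.3% (90.5% to 95.4%) of inner total peaks were shared. The order of the lists turned and the intervals overlap. This cut takes out the weakest total peaks, where total-only peaks are frequent, so it raises the shared part of that list by design. The shares over all peaks under this cut are not given here. Where both lists had the inner peak, the summits were the same base in 223 of 418 neuronal peaks (53.3%) and within 10 bp in 367 (87.8%). Over all shared neuronal peaks these shares were close, at 52.3% and 87.1%. Peaks found in 1 list alone were weak. The median fold was 6.75 against 10.6 for shared peaks in the neuronal list, and 7.59 against 11.0 in the total list. The weakest 20% of each list by the authors' p-value held all 18 peaks found in the neuronal list alone and 58 of the 77 found in the total list alone. The same values over peaks of all classes found in a single list are not given here.

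The total-only sites were unevenly spread over the kinds of site. Of the short RNA sites, 4 of 179 were total-only (2.23%, 0.612% to 5.62%), against 62 of the 280 sites with no annotated non-coding gene (22.1%, 17.4% to 27.5%) and 11 of the 53 at other non-coding genes (20.8%, 10.8% to 34.1%). Fold moved with this split, as given above, and its part in it was not tested. With the stronger 50% of each list by p-value, the shares were 7.75% (3.78% to 13.8%) and 12.4% (7.11% to 19.6%), whose intervals overlap. With equal numbers of peaks they were 0.568% (0.0144% to 3.12%) and 10.3% (6.77% to 14.8%). The total-only site of highest fold was in tag-273 (11.6). It was followed by rbf-1, which encodes the synaptic protein rabphilin (11.4), and sms-3, a sphingomyelin synthase gene (11.3). The others of the 10 highest were in F21C10.3, pct-1 (a cyclin-dependent kinase gene), mig-39, Y73B6BL.31, T02G5.14, D2005.3 and glb-29, a globin gene, with folds from 9.74 to 11.0. Of these 10 sites, 1 was at a short RNA gene, that of mig-39.

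Among the 18 neuronal-only sites the short RNA genes were 4, and the other 14 had no annotated non-coding gene. The highest fold, 9.93, was in Y57G11C.38, 74 bp from smy-11, a gene for an SmY RNA. It was followed by mltn-11 (9.86, at a tRNA gene), emb-4 (9.21), a helicase gene, and unc-68 (9.17, at a tRNA gene), the ryanodine receptor gene. The others of the 10 highest were in trm-2A, mdf-2 (the worm MAD2 gene, at a tRNA gene), ccm-2, clec-80, Y48C3A.5 and K02D10.1, with folds from 6.48 to 8.95.

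Host genes were long. Their median length was 7006 bp (95% interval 6400 to 7993, range 585 to 58910), against 1946 bp for all 17241 autosomal protein-coding genes. A longer gene offers more inner length, so sites were also counted per Mb of it. Of genes under 2 kb 0.380% hosted a site, and the share was 2.14% from 2 to 5 kb, 7.98% from 5 to 10 kb, 15.3% from 10 to 20 kb and 33.1% over 20 kb (55 of 166 genes, 26.0% to 40.8%). Per Mb of inner length the number of sites was 4.54 (3.09 to 6.45) in the shortest class and 16.5 (13.04 to 20.7) in the longest.

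The kinds of site contributed differently to this. Sites with no annotated non-coding gene numbered 1.47, 3.18, 7.40, 10.1 and 12.6 per Mb from the shortest to the longest class of host. Short RNA sites numbered 2.78, 4.58, 4.84, 3.39 and 1.74 per Mb. The intervals of the shortest and longest class do not overlap for the former (0.703 to 2.70 and 9.59 to 16.3 per Mb) and overlap for the latter (1.68 to 4.35 and 0.752 to 3.43 per Mb). By distance from the nearest gene end, sites with no annotated non-coding gene numbered 5.72 per Mb from 201 to 500 bp, 3.04 from 501 to 1000 bp and 3.46 from 1001 to 2000 bp. Their density was 10.3 per Mb from 2001 to 5000 bp and 12.9 beyond. Short RNA sites kept between 2.54 and 4.49 per Mb over these classes, with overlapping intervals.

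**Figure D3:**
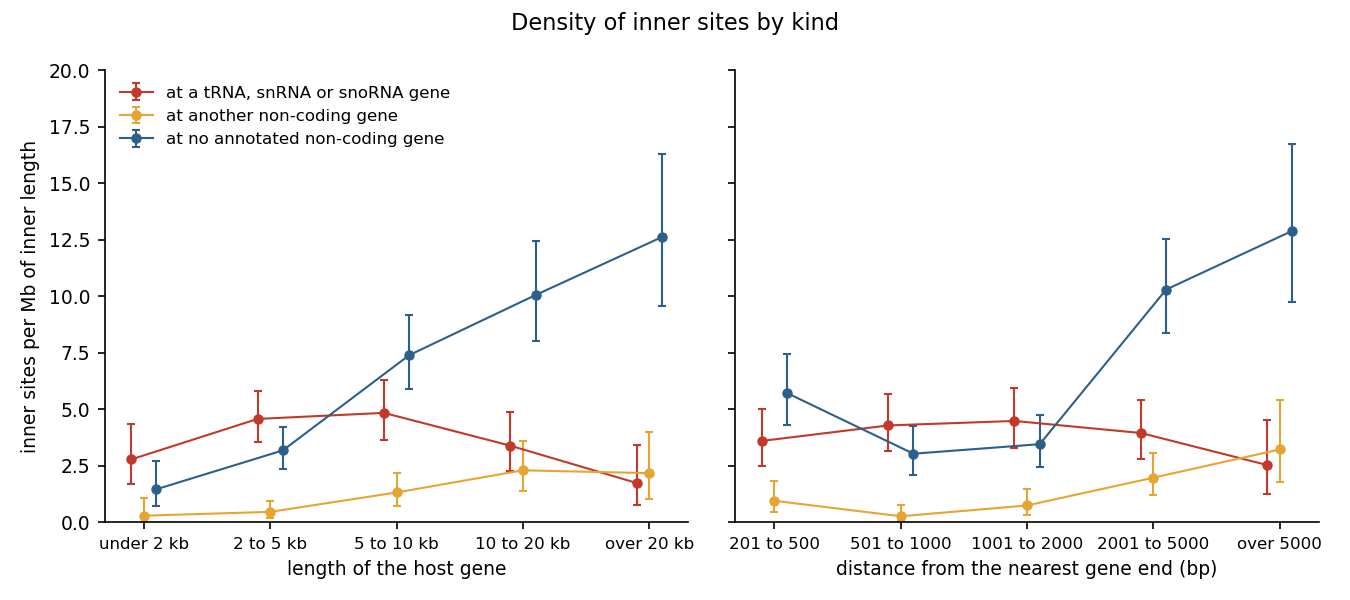
Inner sites per Mb of inner length by length of the host gene (left, counted for each site and host) and by distance of the summit from the nearest gene end (right). Colours give the kind of site and bars are 95% exact Poisson intervals. Sites with no annotated non-coding gene reach 12.6 per Mb in genes over 20 kb, where short RNA sites reach 1.74.

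Genes with several annotated transcripts were more frequent among hosts at each length. Several transcripts were annotated for 303 of the 451 hosts (67.2%) and for 24.01% of the other autosomal genes with inner length. From the shortest to the longest class, the shares were 22.6%, 53.7%, 65.0%, 85.9% and 94.5% of hosts and 11.2%, 29.2%, 50.8%, 67.1% and 87.4% of the others. The intervals of hosts and others overlapped under 2 kb and over 20 kb. Over hosts of sites with no annotated non-coding gene the shares were 40%, 75%, 73.2%, 85.9% and 97.7%, and over hosts of short RNA sites 10.5%, 40.6%, 50%, 80% and 75%. A peak near an end of the same gene was found in either list for 72 of the 451 hosts (16.0%, 12.7% to 19.7%) and for 13.1% of the other genes (12.6% to 13.6%). From the shortest to the longest class, the shares were 32.3%, 13.8%, 16.1%, 15.2% and 12.7% of hosts. For the others they were 11.1%, 13.8%, 19.7%, 16.5% and 12.6%. The intervals overlapped in every class but that under 2 kb.

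Among the longest hosts were hmr-1, the worm cadherin gene (58910 bp), vab-10, a spectraplakin gene (57568 bp), unc-89, the obscurin gene of muscle (55184 bp), and daf-2, the insulin receptor gene (46333 bp). Their sites were held by both lists, save 1 of the 2 sites of daf-2, which was in the total list alone. The shortest hosts were F55C7.2 (585 bp), the small heat shock gene sip-1 (696 bp), T04D3.8 (724 bp), the ribosomal protein gene rps-29 (732 bp) and ZC412.10 (882 bp). The rule places the summit alone, so a peak can run past a gene end. The neuronal peak of sip-1, from 10504981 to 10507381 on chromosome III, covered the whole gene. The site of F55C7.2 lies in the span of unc-73 as well, and 3 of the 512 sites had 2 hosts in this way. Chromosome III had 13.8 sites per Mb of inner length (11.4 to 16.6) and chromosome V 9.22 (7.47 to 11.3), with chromosomes I, II and IV between 11.0 and 11.6. This order was not particular to inner sites. Peaks near gene ends numbered 69.8 per Mb on chromosome III and 30.8 on V in the neuronal list, and 85.8 and 37.4 in the total list. Those farther outside genes numbered 32.2 and 11.1, and 37.9 and 13.4.

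Of the 10 peaks farthest from gene ends, 1 in the neuronal list and none in the total list was at a short RNA gene. The farthest summit, in gcn-1, a gene for a regulator of translation, was 20175 bp from the nearest gene end on chromosome III (2171809 to 2172554), with folds of 16.0 in the neuronal and 15.8 in the total list. The site in hmr-1 was 20089 bp from a gene end in the neuronal list, with folds of 15.4 and 15.7. In the neuronal list the others of the 10 farthest were in aakg-1, pqn-41 (3 peaks), kcc-2 (13.8), a chloride cotransporter gene, vab-10 (16.3), unc-68 and unc-89 (10.7). Of these, unc-68 was at a tRNA gene. In the total list the 10 farthest included sites of lmd-3 (6.24) and anc-1 (7.59) that the neuronal list did not hold. Sites without an annotated non-coding gene were also among the 10 highest folds of both lists. That in C35B1.2 on chromosome IV (4093005 to 4093561) had folds of 22.9 and 23.8. That in dot-1.1, a histone methyltransferase gene, on chromosome I (2393159 to 2393983), had folds of 21.9 and 24.5 and lay 7980 bp from any gene end.

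Relative position, as a share of host length, was close to that of the inner length pooled over autosomal genes of all lengths. Hosts were longer than these genes, so the comparison is not matched for gene length. Each of the 515 pairs of site and host was placed by its distance from the nearer end of the host, since strand is not given. The median was 27.7% of the host's length (26.0% to 29.9%). The 10% of length next to either end held 11.8% of pairs (9.18% to 14.95%) and 13.6% of the inner length. From 20% to 30% the shares were 24.3% (20.6% to 28.2%) and 21.7%. The 50% of the gene with the lower coordinates held 257 of the 515 pairs (49.9%). In bp, the median distance to the nearest end of any gene was 1801 bp (1429 to 2038). By that distance, density did not follow the inner length. Sites of all kinds numbered 10.3 per Mb from 201 to 500 bp, 7.59 from 501 to 1000 bp and 8.70 from 1001 to 2000 bp. They numbered 16.2 per Mb from 2001 to 5000 bp and 18.7 beyond. Whether a site lies towards the 5′ or the 3′ end, or in an exon or an intron, was not analysed here.

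**Figure D4:**
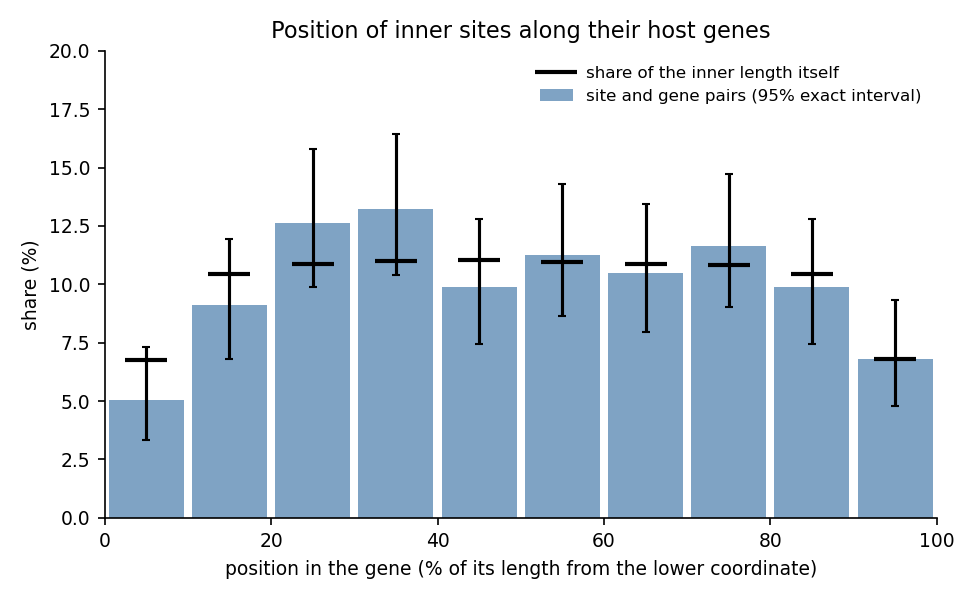
Share of the 515 pairs of site and host gene in each 10% of the gene's length, counted from its lower coordinate, with 95% exact binomial intervals. Black marks give the share of the inner length itself in the same 10%, pooled over autosomal genes of all lengths. The marks lie within the interval in every 10% of the length, from 5.05% of pairs in the first to 6.80% in the last.

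The peaks nearest to the 200 bp limit are given as a description. Just inside it in the neuronal list were the peaks of C26D10.3, spd-5 and sip-1, 214 to 215 bp from an end, with folds of 7.74, 11.5 and 6.52. Just outside were those of col-72, gcy-35 and mpz-3, at 198 to 200 bp, with folds of 10.5, 12.4 and 12.0. In the total list the peaks just inside were those of erp-44.1, slc-25A42 and sip-1, at 202 to 212 bp, with folds of 7.67, 7.60 and 6.43. Just outside were those of col-72, gcy-35 and nars-2, with folds of 11.5, 13.0 and 10.1.

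Most hosts had a single site and 51 of 451 (11.3%) had several. These were 42 genes with 2 sites, 5 with 3 and 4 with 4, and their median length was 14479 bp against 6397 bp for hosts of 1 site. Neighbouring sites in a gene were 4296 bp apart in the median (2289 to 5207, range 753 to 22294, 64 gaps). Every site was in both lists for 30 of the 51 genes. At 6 of them every site was at a short RNA gene, and at 25 no site had an annotated non-coding gene.

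The genes with 4 sites were lin-42, aakg-1, pqn-41 and zfp-1. In lin-42, the worm period gene of developmental timing, both lists held all 4 sites. Its neuronal folds were 8.94, 7.995, 4.20 and 18.1, and its total folds 8.85, 8.19, 4.78 and 18.4, in the order of the coordinates. The highest of them was the only one near an annotated non-coding gene, of the class ncRNA. In zfp-1, a chromatin gene, both lists again held all 4, with neuronal folds of 4.88, 7.33, 4.48 and 6.23 and total folds of 4.93, 7.20, 4.89 and 6.56. In aakg-1, a subunit gene of AMP-activated kinase, the total list held 4 sites, with folds of 8.82, 7.01, 9.81 and 12.8. The neuronal list held the last 2 of these, with folds of 9.17 and 11.7. In pqn-41, a gene for a glutamine-rich protein, the neuronal list held 3 sites (8.95, 7.95 and 7.49) and the total list those and a weaker one between them (4.03).

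The 5 genes with 3 sites split by kind. In glr-2, a glutamate receptor subunit gene, the 3 sites were those of 3 nested genes for SL2 RNA, the leader that is joined to transcripts of downstream operon genes. These were sls-2.5, with the summit inside it, and sls-2.16 and sls-2.18, each with the summit 105 bp away. The folds at these 3 genes were 9.51, 10.5 and 8.80 in the neuronal list and 9.57, 10.5 and 9.49 in the total list. In rol-3, a receptor tyrosine kinase gene, the 3 sites were at a snoRNA gene (18.5 and 19.6) and at 2 tRNA genes (8.03 and 8.13, 14.8 and 15.8). In lit-1, the Nemo-like kinase gene of Wnt signalling, no site had an annotated non-coding gene, and folds were between 4.97 and 7.19. The sites of vhp-1, a MAP kinase phosphatase gene, had folds from 5.20 to 10.6. Those of ppfr-1, a protein phosphatase subunit gene, had folds from 3.44 to 8.84. Single sites of lit-1 and vhp-1 were in the neuronal list alone, and 1 of ppfr-1 in the total list alone. Of the genes with 2 sites, kin-1, which encodes the catalytic subunit of protein kinase A, and tent-5 had both in the total list alone, with top folds of 7.71 and 6.92.

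**Figure D5:**
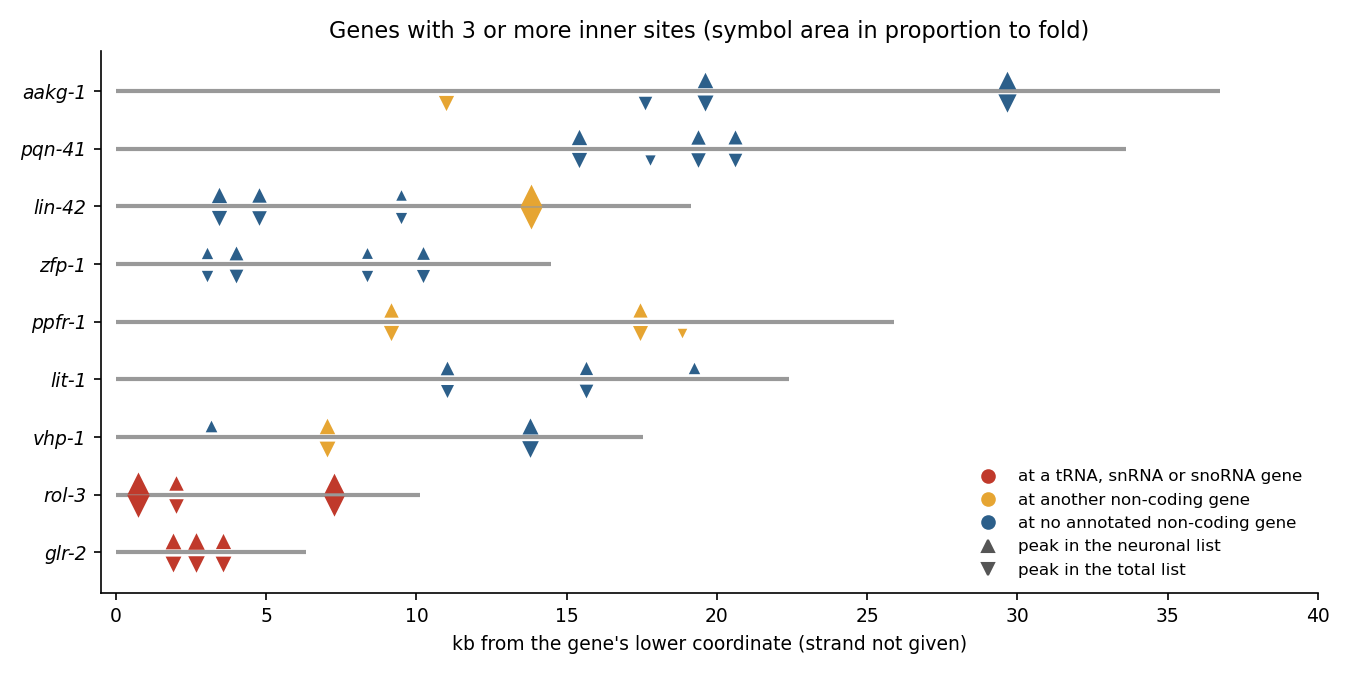
The 9 genes with 3 or more inner sites, each drawn as a grey line from its lower coordinate in kb. Triangles are peaks of the neuronal list (above the line) and the total list (below), with area in proportion to fold and colour by the kind of non-coding gene within 200 bp. All 3 sites of glr-2 and of rol-3 are at short RNA genes, and none of those of zfp-1, pqn-41 and lit-1 is at an annotated non-coding gene.

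Host counts by gene group are given beside gene length, since longer genes host sites more often. Over all autosomal protein-coding genes 451 of 17241 (2.62%) were hosts. Of 36 autosomal genes of G protein and second messenger signalling 10 were hosts (27.8%, 14.2% to 45.2%), with a median length of 7189 bp over the group. Among them were unc-43, the gene of calmodulin-dependent kinase II (2 sites, top folds 7.01 in the neuronal and 7.43 in the total list), and mpk-1, the ERK gene (14.5 and 16.1). Others were egl-4, the cGMP-dependent kinase gene (13.6 and 13.4), pde-4, a phosphodiesterase gene (9.68 and 11.0), and egl-30, the Gq gene (8.94 and 9.70). Of these 10 hosts 9 had a site with no annotated non-coding gene. Among genes over 10 kb, 8 of 12 in this group were hosts, against 154 of 812 over all autosomal genes (18.97%). Length was not matched within this class, where the host share was 15.3% from 10 to 20 kb and 33.1% over 20 kb. A peak near a gene end was found for 11 of the 36 genes (30.6%), against 13.1% of all autosomal genes. The groups were chosen with earlier results of these data known. In the other neuronal groups the hosts among genes over 10 kb were 7 of 16 for synaptic release and axonal transport, 4 of 8 for transcription factors, 5 of 27 for axon guidance and adhesion (18.5%), 1 of 15 for channels, receptors and transporters (6.67%) and 0 of 5 for cilia. They were 4 of 15 for body-wall muscle and 3 of 12 for chromatin and transcription machinery.

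Of 40 autosomal genes of synaptic release and axonal transport 9 were hosts (22.5%, 10.8% to 38.5%). At 5 of them a site was at a short RNA gene. Both sites of unc-31, which acts in dense-core vesicle release, were at snRNA genes, with top folds of 10.6 in the neuronal and 10.5 in the total list. The sites of the kinesin gene unc-104 (12.5 and 13.4) and of ida-1, a dense-core vesicle gene (11.6 and 11.3), were at tRNA genes, and that of the spectrin gene unc-70 (13.5 and 15.3) was at a snoRNA gene. Of 2 sites in unc-33, an axon growth gene, 1 was at a tRNA gene. No short RNA gene was at the sites of unc-119 (12.5 and 13.3), ric-7 (10.5 and 10.4) and rbf-1. Of 46 genes for neuronal channels, receptors and transporters 3 were hosts, glr-2, osm-9 and unc-68, and at all 3 the sites were at short RNA genes. osm-9, a TRP channel gene, had folds of 14.3 and 16.2.

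In the remaining neuronal groups the counts over genes of any length were 5 of 45 for axon guidance and adhesion (vab-10, hmr-1, the catenin gene jac-1, the flamingo gene fmi-1 and the cell adhesion gene sax-7) and 5 of 42 for transcription factors. The latter were daf-16, the FOXO gene, with 2 sites at genes of the class ncRNA, unc-62, crh-1, mef-2 and egl-44. No gene of 40 for cilia was a host, an upper 95% limit of 8.81%. Of 50 genes of chromatin and transcription machinery 7 were hosts, among them dot-1.1, nurf-1 (2 sites, 1 at mir-5595), lsy-12 (15.02 and 14.4), pbrm-1 (14.0 and 15.5) and cdk-12 (7.84 and 8.94). Body-wall muscle genes gave 4 of 43 (the dystrophin gene dys-1, lim-8, unc-94 and unc-89), germline genes 3 of 54 (gld-2, zhp-3 and spe-9) and genes of intestine, pharynx and hypodermis 2 of 43 (nhr-23 and vab-10). Ribosomal and other ubiquitous genes gave 1 of 53, rps-29, whose peak in the total list had a fold of 1.35. That group had the shortest genes, with a median of 1060 bp.

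The inner sites of marker genes were no check of the sort, because the hosts among them were in both lists. Of 8 neuron markers unc-104, unc-119 and unc-31 hosted an inner site. Of 2 autosomal hypodermis markers 1 did, nhr-23 (6.70 and 7.80). No autosomal marker of body-wall muscle (4), intestine (3), germline (4) or pharynx (2) did. Length was not matched: unc-104 (15638 bp) and unc-31 (14488 bp) were longer than every other autosomal marker, of which unc-54 was longest (7582 bp). The sites of unc-104 and unc-31 were at tRNA or snRNA genes.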

How the data were processed

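ATAC-seq libraries came from 3 samples of neuronal and 3 of total nuclei, grouped by the labels. Tools named in the submitters' processing notes, without roles or parameters, are MACS2, Picard, Bowtie2 2.2.6, bedtools 2.26, cutadapt 1.9.1 and SAMtools 1.7, with the build ce11. Read shifting for Tn5, duplicate removal, reads with several matches and depth per sample were all not given in the sources used here. Each group has 1 narrowPeak list deposited by the authors, whose name holds an irreproducible discovery rate of 0.1, and how samples were combined into it was not stated. Among its deposited values are a fold (a ratio over local background), a −log10 p-value, a score and the summit offset. Fold was used to describe and rank peaks within a list and the −log10 p-value to rank them. The deposited score gave no result in the text.

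Gene spans and classes came from a RefSeq table of WBcel235, the same sequence as ce11, with 17241 autosomal protein-coding genes. Strand, exons and genome sequence were not used here, so planned motif counts and orientation were not run. Shares have exact binomial, medians exact order-statistic and densities exact Poisson 95% intervals (Python 3.11.15, numpy 2.4.6, pandas 2.3.3, scipy 1.17.1, matplotlib 3.10.9). The counting was tested on simulated data.

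The rule for peaks, the 11 gene lists and the rules for naming genes were chosen with earlier results of these data known. Named were hosts with most sites, the highest folds overall and in each list alone, the longest and shortest hosts, the peaks at the 200 bp limit and farthest from ends, and up to 8 hosts per gene list. Of 626 listed names 490 were autosomal and 21 unmatched. The analysis of non-coding genes was added after values had been seen. For 1 of the longest hosts the values are not reported here.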

Additional observations from a re-analysis of the deposited data

How the results depend on the processing

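No paired analysis was possible because each group has 1 deposited list and no value per sample, and for the same reason no replicate could be left out. Of 80 alternative values 57 moved by less than their interval or by less than 1.5 times for counts. The distance from gene ends moved the median position to 30.3% at 500 bp and 32.4% at 1000 bp. At 1000 bp it also moved the counts of inner peaks to 285 neuronal and 318 total, their density to 11.6 and 12.9 per Mb, and the share of sites at short RNA genes to 29.4%. With the stronger 50% of each list by p-value the counts were 253 and 275, the median folds 12.3 and 12.6, and the share at short RNA genes 45.7%. The total-only shares were then 7.75% at short RNA genes and 12.4% at sites with no annotated non-coding gene. With equal numbers of peaks 92.4% of neuronal and 93.3% of total inner peaks were shared, which turns the order of the lists, and the total-only shares were 0.568% and 10.3%. In the neuronal list alone 40.4% of sites were at short RNA genes. Counting an RNA gene only where the summit lay within 50 bp gave 25.2%. Counting it only where the summit lay inside it gave 8.20%, with total-only shares of 0 at these sites and 16.7% at those then without an annotated non-coding gene. Alternatives for non-coding genes were chosen after seeing the data. Planned motif and orientation alternatives were not run. Depth is unknown, so absence of a peak from either list does not mean closed chromatin.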
